A study of Xenopus laevis with 5 samples.

Results

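Testes of untreated Xenopus laevis, a clawed frog, were ranked here by the brightness of the probes on each array, without any comparison with herbicide. The ranking covered the 2 control samples only. A probe entered it when the scanner software called it well above background on both arrays. Its value was the log2 of its processed signal relative to the 75th percentile of all gene probes on the same array, and probes were ordered by the mean of both arrays. Of 43653 gene probes, 33550 (76.9%) were well above background on both arrays. Of these, 16075 carried an NM_ accession, a curated RefSeq transcript, which was 92.4% of the 17405 NM_ probes on the array. The 300 brightest of these 16075 are described below. They stood for 196 accessions, and 273 of them had a gene symbol in the reference table, for 162 genes.

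Tadpoles entered the study at Nieuwkoop-Faber stage 46 and were kept for 90 days, and the testes of males were then taken. Control animals had 0 µg/L of simazine, a chlorotriazine herbicide, in the water, and 3 further samples from animals at 100 µg/L were not ranked. All groups shared the water renewal, the light cycle and the feed, and no strain, age of the animals at sampling or genetic change was given in the labels. Total RNA was amplified to Cy3-dyed cRNA, and each sample was read on 1 one-colour Agilent array. The labels do not say whether the 2 control testes came from separate animals, so their spread may be technical.

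A testis holds germ cells and the somatic cells that support them. In frogs, germ cells develop in cysts, each enclosed by Sertoli cells, and pass from spermatogonia through meiosis to spermatids and sperm. Leydig cells between the tubules make androgens, and peritubular myoid cells line the tubule wall. Many germ cell genes act in both sexes, among them RNA helicases and RNA-binding proteins of the germ plasm. Other genes, such as those of the egg coat, are known from oocytes. A gene's signal on an array depends on the binding of its probe and on amplification, so a rank here is one of probe brightness and not of transcript abundance. In a whole organ, fewer cells of a type and less RNA per cell cannot be told apart.

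The 2 arrays differed in overall brightness. The 75th percentile of the signal was 6693 on control 1 and 2380 on control 2. Gene spots well above background made up 82.1% on control 1 and 78.3% on control 2, and 1 gene spot on control 1 was saturated. Spots that the software marked as non-uniform or as outliers made up 44.0% of gene spots on control 1 and 10% on control 2. Per the file headers, the arrays belonged to different scans, and the signal of control 2 alone was corrected for a multiplicative trend. Difference between the samples and difference between the scans therefore cannot be told apart.

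Ribosomal proteins, the structural parts of the ribosome, were the family with the most probes among the brightest of the control testes. Ribosomal protein probes made up 100 of the 300 (33.3%), against 1.15% of all NM_ probes on the array. Among the first 100 probes there were 45. By gene, 54 of the 73 ribosomal protein genes on the array had a probe among the 300, where 1.96% of all 8263 genes with a symbol had one. The large subunit had 33 of 45 genes there and the small subunit 21 of 28.

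The first ribosomal protein gene was rpl9.L at rank 5, with 6.78 on control 1 and 7.86 on control 2 (log2 relative to the 75th percentile). Next came rps16.L at rank 6, with 6.70 and 7.86. The large subunit gene rpl4.L had 6.58 and 7.77 at rank 9. All 3 were higher on control 2 by more than 2-fold. Of the 30 highest genes with an informative symbol, 17 were ribosomal protein genes, among them also rps20.L, rpl3.L, rps27.S and rpl21.L. The 30 had means of 6.73 to 7.41. Relative to the 75th percentile of each array, all 30 were higher on control 2, as were 92 of the first 100 probes. Before this scaling the signals of the 30 were higher on control 1, such as 735939 against 553222 for rpl9.L.

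Not all ribosomal protein genes were bright. There were 19 without a probe among the 300, and 5 had their brightest probe under the 90th percentile of NM_ probes. These 5, named after their values were seen, were rpl22l1, rps24, rpl24, rpl36 and rpl3l. The lowest was rpl3l, in mammals the muscle form of rpl3, with -3.69 on control 1 and -3.48 on control 2. In contrast rpl3.L, its widely expressed relative, had 6.43 and 7.51 at rank 20. The probe of rpl36 had -4.02 and -2.45, and each array placed it far below the family's median percentile of 99.3.

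Other parts of the cell's basic machinery followed the ribosome. Translation factors held 13 of the 300 probes (4.33%, against 0.655% of NM_ probes) and 7 of 33 genes. The highest was rack1.L, a scaffold protein bound to the small ribosomal subunit, with 6.57 on control 1 and 7.33 on control 2. After it came eif4a1, the helicase that unwinds the 5′ end of mRNAs, with 6.1 and 6.56, and eef1g, a subunit of elongation factor 1, with 5.91 and 6.74. Oxidative phosphorylation held 11 probes (3.67%, against 0.730%) and 8 of 62 genes, led by atp5f1a.L, the alpha subunit of ATP synthase, with 6.54 and 6.97.

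Chaperones held 7 probes (2.33%, against 0.598%) and 4 of 32 genes. They were ppia.L (cyclophilin A) with 6.46 on control 1 and 7.49 on control 2, hsp90ab1 with 6.32 and 6.70, tcp1 with 5.83 and 6.49 and cct7 with 6.18 and 5.74. The last 2 are subunits of the chaperonin that folds actin and tubulin. Cytoskeletal genes held 8 probes (2.67%, against 0.557%) and 6 of 32 genes, led by tubb4b, a beta-tubulin, with 6.33 and 6.34. Glycolysis held 3 probes (1%, against 0.345%) and 2 of 19 genes, gapdh.L with 6.56 and 7.35 and ldhb with 6.05 and 6.78. The proteasome held 3 probes (1%, against 0.454%) and 3 of 35 genes. The 35 were matched by symbol and include psmc3ip, a meiotic recombination protein that is also in the meiosis list.

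Histones differed widely among themselves. They held 7 probes (2.33%, against 0.230%) and 4 of 19 genes, and their median percentile was 79.9. At the top stood h3c13.S, a histone H3 gene, with 6.51 on control 1 and 7.22 on control 2, and h3-5, h1-10 and h2az2 were also among the 300. At the other end h4c4, a histone H4 gene named after its value was seen, had -10.69 and -9.08 and was not well above background on both arrays.

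The genes outside every list and family numbered 63, with 104 of the 300 probes, and their names were taken after the values were seen. Among them fth1.1.L, a ferritin heavy chain that stores iron, stood at rank 10 with 6.75 on control 1 and 7.59 on control 2. Its homeolog fth1.1.S stood at rank 17, fth1.2.L at rank 110 and ftmt.S, named for mitochondrial ferritin, at rank 74. Nuclear and RNA-handling genes included ddx21.L (a nucleolar RNA helicase, 6.35 and 7.55), hmgn2.L (a nucleosome-binding protein, 6.23 and 7.14), srsf2.L (a splicing factor, 6.23 and 7.10), ncl.S (nucleolin) and ybx1.L. Genes that act in cell division, such as cdk1.S, cdk1.L, anapc11.L, tpx2.S, ube2c.S and cks1b.L, were also present. The first of these, cdk1.S, the kinase that drives entry into mitosis and meiosis, had 5.86 and 6.23.

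Some of the brightest probes belonged to genes known for other tasks. At rank 1 was slc38a7.L, in mammals a lysosomal amino acid transporter, with 6.79 on control 1 and 8.03 on control 2. At rank 7 was mreg.S, in mammals melanoregulin, with 6.67 and 7.86. Of the 3 probes of mreg.S, 2 were among the 300 and the lowest had a mean of -5.58. At rank 12 was aifm2.S, in mammals a suppressor of ferroptosis. It had 16 of the 300 probes, the most of any accession, out of 19 on the array, and the lowest of the 19 had a mean of -0.54. Accessions without a symbol held 27 of the 300 probes (9%, against 7.90% of NM_ probes), 10 of them in the first 100. Which transcripts these probes bind was not tested.

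Germ cell genes lay high in the ranking. Each gene was taken by its brightest NM_ probe and given a percentile among all NM_ probes. Of 149 germ cell genes listed, 43 had an NM_ probe under these names, with 6 of 37 for meiosis and 18 of 75 for spermatid and sperm. The rest were not measured here. The 43 germ cell genes on the array had a median percentile of 87.2, against 61.9 for all genes with a symbol. On control 1 alone the median was 88.1 and on control 2 alone 86.8. Of the 43, 19 (44.2%) lay in the top decile, where 13.7% of all genes did. Being well above background set few genes apart, since 42 of the 43 were so on both arrays and so were 95.4% of all genes. Of the 43 genes, 7 had 8 probes among the 300, which was 2.67% of the 300 against 0.465% of all NM_ probes.

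Genes of the germ line and spermatogonia numbered 19, with a median percentile of 84.7. That median is the value of pou5f3.3.L, a gene that is also in the oocyte and egg list. The highest was ddx4.L, the Vasa RNA helicase that marks germ cells across animals, at rank 82 with 5.98 on control 1 and 7.07 on control 2. At rank 126 stood dazl.L, an RNA-binding protein of germ cells, with 5.71 and 6.89. A Tudor protein of the germ plasm, tdrd6.L, had 5.98 and 6.58. All 3 were higher on control 2, as were 210 of the 300, and ddx4.L and dazl.L were so by more than 2-fold. On control 1 alone ddx4.L ranked 210, tdrd6.L 211 and dazl.L 304, so dazl.L was not among the 300 of that array. On control 2 alone they ranked 53, 111 and 76. The spots of all 3 were marked on control 2. At rank 96 was uchl1.S, a deubiquitinase known from spermatogonia and neurons, with 5.85 and 7.03, and it counts in both lists. It ranked 247 on control 1 alone and 61 on control 2 alone.

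Within the same list the values ran over the whole range of the array, as shown by 2 genes chosen after their values were seen. The pluripotency factor lin28a had -6.98 on control 1 and -6.11 on control 2, and nanos1, a translational repressor of germ cells, had -2.43 on both. The gene sall4, a zinc finger factor of stem cells, had -9.0 and -9.03 and was not well above background on either array. It was the 1 germ cell gene of the 43 that was not.

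Meiosis had 6 genes on the array under these names, with a median percentile of 79.1. The highest was ccna1.S, cyclin A1, at rank 279 with 5.67 on control 1 and 5.58 on control 2. Then came rec8.L, the meiotic cohesin subunit, with 4.08 and 2.88, hormad1.S, a chromosome axis protein, with 3.19 and 2.43, and mlh3.L, a crossover protein, with 1.16 and 1.07. The 2 arrays were close for ccna1.S and mlh3.L, and rec8.L was higher on control 1 by more than 2-fold.

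The 18 spermatid and sperm genes had a median percentile of 91.9, and 10 of them lay in the top decile. The median was 92.2 on control 1 and 87.3 on control 2. The highest was hspa1l.S, an HSP70 protein known from spermatids in mammals, at rank 112 with 6.21 on control 1 and 6.54 on control 2. Genes of the sperm tail and other cilia followed: ribc1.S with 5.86 and 5.34, spag6.L of the central pair with 5.06 and 5.49, and rsph1.L of the radial spokes with 5.48 and 4.50. Apart from these, tekt4.S, a tektin of the axoneme chosen after its value was seen, had 4.61 and 2.04, the widest gap of the 18. The next widest was that of odf3.L, at 4.97 and 2.53.

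A further bright gene was in no list. The probe of sp4-c stood at rank 16, with 6.86 on control 1 and 7.15 on control 2. In Xenopus the name SP4 is used for a sperm basic nuclear protein, which replaces histones in sperm. The reference table gives no description for this symbol, so it was counted in none of the groups above.

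Somatic testis genes lay lower. Of 81 listed, 52 were on the array under these names. The 52 genes had a median percentile of 64.9, near the 61.9 of all genes, with 64.5 on control 1 and 66.6 on control 2. All 52 were well above background on both arrays, as were 95.4% of all genes. In the top decile lay 9 (17.3%, against 13.7% of all genes), and 1 (1.92%, against 1.96%) had a probe among the 300. Both shares were near those of all genes. The germ cell markers ddx4 and dazl, and sox9 and dmrt1 of the Sertoli cell list, were also well above background on both arrays. Whether dmrt1 signal came from Sertoli cells alone was not tested. As most genes on the array were well above background, detection of these genes says little of the tissue. For cyp11a1, ar, amh, sycp3, acr, zpbp and zp3 no NM_ probe carried the symbol, and they were not analysed here.

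Sertoli cell genes numbered 16, with a median percentile of 60.5. The highest was sox9.L, the transcription factor of Sertoli cell differentiation, at rank 611 with 4.08 on control 1 and 5.0 on control 2. Next were inha.L, the alpha subunit of inhibin, with 4.26 and 2.80, and dmrt1.S, a factor that maintains male fate, with 3.38 and 3.45. The beta B subunit, inhbb.L, had 2.82 and 3.01. The arrays were close for dmrt1.S and inhbb.L and were more than 2-fold apart for inha.L.

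Leydig cell and steroid synthesis genes numbered 13, with a median percentile of 65.1, and none lay in the top decile. The mitochondrial outer membrane protein tspo.L was the highest, with 3.29 on control 1 and 2.21 on control 2, followed by srd5a1.S, which makes dihydrotestosterone, with 2.41 and 2.85. The cholesterol carrier star.L had 0.85 and 1.94. The enzymes hsd3b1.L and cyp17a1.L, which act in androgen synthesis, were below the median of all genes. The first had -2.01 and -1.05, and cyp17a1.L had -4.10 and -1.69. All of star.L, hsd3b1.L and cyp17a1.L were higher on control 2, with a difference of -2.41 (log2, control 1 minus control 2) for cyp17a1.L. The list as a whole went the other way, with a median of 0.85 on control 1 and 0.36 on control 2. The oestrogen receptor esr1.S, in none of these lists, had -2.59 and -2.62.

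The peritubular, smooth muscle and stroma list had the highest somatic median, 82.8 over 18 genes. Its first gene, acta2.L or smooth muscle actin, was the 1 somatic testis gene among the 300, at rank 290 with 5.68 on control 1 and 5.47 on control 2. Actins are close in sequence, so its probes may share target with actb.L. Then came tagln.L (transgelin) with 5.38 and 5.26, myl9.L (myosin light chain) with 4.40 and 5.60, and sparc.S (a matrix protein) with 5.25 and 4.47. Endothelium had 5 genes with a median percentile of 34.3. Its highest was pecam1.L, with 1.72 and 2.08.

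Genes known from oocytes and eggs were detected in these testes. Of 53 listed, 38 were on the array under these names. All 38 were well above background on both arrays, as were 95.4% of all genes, so detection did not set them apart. They had a median percentile of 69.1 (69.0 on control 1 and 70.8 on control 2), against 61.9 for all genes. In the top decile there were 8 of the 38 (21.1%, against 13.7% of all genes). Of the 38, 2 had probes among the 300. The first was ybx2.L, an RNA-binding protein that stores mRNA in germ cells of both sexes, at rank 64 with 6.49 on control 1 and 6.82 on control 2. The other was ccnb1.2.S, a cyclin B, with 5.57 and 5.93. Both have roles outside the oocyte.

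Genes with a role more restricted to the egg spread from the top decile to below the median of all genes. The histone chaperone npm2.L, nucleoplasmin, had 3.65 on control 1 and 3.16 on control 2 at the 91.9 percentile, and the oocyte linker histone h1-8.S had 2.14 and 1.78. The egg coat gene zp4.S had 1.63 and 0.68 and zp2.L had -0.22 and -1.11. The maternal factor zar1.S had -1.50 and -1.32. Between arrays, 33 of the 38 were within 2-fold, as were 6589 of all 8263 genes. Of these 5 named genes zp4.S had the widest gap. Also in the oocyte list, the translation regulator cpeb1.S had 4.75 and 4.03. There eef1a1o.S, named for the oocyte form of elongation factor 1 alpha, had 5.48 and 2.91. Whether cpeb1.S and eef1a1o.S are restricted to the egg was not tested. Of eef1a1o.S, how far its probe also reads the somatic form was not tested.

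Markers of other organs were mostly low. The 129 genes of 10 such lists had a median percentile of 37.3, against 61.9 for all genes. Of the 129, 16 were not well above background on both arrays, against 383 of all 8263 genes. Kidney genes had a median of 15.1, intestine and pancreas 20.7, leukocytes 26.1 and liver and plasma 42.9. Epidermis and epithelium had 36.6, skeletal muscle 46.9, neurons and Schwann cells 55.4 and fat body 59.5, and the 2 adrenal and interrenal genes had 62.0. In the intestine and pancreas list 6 of 21 were not well above background on both arrays. In the top decile there were 8 of the 129, a smaller share than the 13.7% of all genes. Of these 8, epidermis and epithelium had 3 of its 16 genes and leukocytes 2 of 10, both larger shares than 13.7%. Kidney had 1, aqp1.L at rank 515. The listed genes with a probe among the 300 were uchl1.S, named above, and the globin gene hbg1.L. The keratin krt8.1.S, with probes at ranks 136 and 214, was not counted. The epidermis and epithelium list holds krt8, and lists were matched by exact name.

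The globin hbg1.L, for which the reference table lists beta-globin as a synonym, was the brightest gene of blood. All 5 of its probes were among the 300, with 6.44 to 6.69 on control 1 and 6.41 to 7.10 on control 2. Its brightest stood at rank 29. The alpha-globin hba1.S had 3.57 on control 1 and 2.23 on control 2, and hba-l5 had 2.16 and 1.34. The erythroid factor gata1 had 0.34 and 0.91 and hba2.L was not well above background on control 2. The erythrocyte list as a whole had a median percentile of 40.4 over 15 genes. How much of each sample's RNA came from blood was not tested.

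Xenopus laevis carries many genes as 2 homeologs, L and S, from its ancestral genome doubling. Of members with either ending, S copies made up 51.0% and L copies 49.0%, against 41.6% and 58.4% of NM_ probes. Of 56 member genes with both copies on the array, 21 (37.5%) had both among the 300. For rpsa, a small subunit protein, the L copy had a mean of 6.47 and the S copy 6.41, and for ybx2 they had 6.66 and 6.22. For mreg the L copy had -0.63 and the S copy 7.27, and for ddx21 the L copy had 6.95 and the S copy 0.18. Each copy is read by its own probes, and a probe may bind RNA of both, so these are differences between probes. Over all 1736 genes with both copies on the array, 565 (32.5%) were within 2-fold by their brightest probes, and the median absolute difference was 1.76 on the log2 scale.

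Different probes of 1 transcript often differed as much. Of the 196 accessions, 157 had more than 1 probe well above background, and 19 of these had all of them among the 300. The range over the probes of an accession had a median of 3.43 on the log2 scale, and the largest was 13.26. Over all 4216 such NM_ accessions the median range was 2.94, and 19.6% were within 2-fold. The accessions with several members included rpl10.S with 4 of 5 probes, ubb.L (a ubiquitin gene) with 4 of 5 and ccdc50.L with 4 of 7.

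The 2 control arrays ranked the probes alike over the whole array, and less alike within the 300. Across the 16075 NM_ probes, Pearson's r was 0.955 and Spearman's rho 0.961, and the median absolute difference was 0.57 on the log2 scale. Across the 300 alone r was 0.45 and rho 0.48, and the ranks of a probe on the 2 arrays differed by a median of 75. The 300 span a narrow range and were chosen by the mean of both arrays, so these values also describe the choice. All these correlations are across probes of 2 arrays, and probes are not independent replicates. Between the arrays 75.2% of NM_ probes were within 2-fold. Control 1 was higher by 2-fold or more in 14.2% and lower in 10.6%. In addition, 47 probes were spotted 4 times on each array and detected on both. Their median SD over single spots was 0.34 on control 1 and 0.33 on control 2. Between arrays the median SD of their values, each averaged over 4 spots, was 0.40. An average over spots varies less than a single spot, so these SDs cannot be compared directly. None of these repeated probes was among the 300.

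Among the 300, 264 (88%) were within 2-fold, and 6 were higher and 30 lower on control 1 by 2-fold or more. Of the 24 with no marked spot on either array, 8 (33.3%) were within 2-fold. In the deposited log2 table, the 300 brightest NM_ probes, mostly other probes, had 57% within 2-fold. Because the mean of both arrays chose the 300, their agreement is a description of the choice as well. The differences, control 1 minus control 2, ran from -1.97 to 1.76 on the log2 scale. Of the first 100, 92 were lower on control 1, with a median difference of -0.62. Values of the 300 reached 8.05 on control 2 and 6.86 on control 1. Of ranks 201 to 300, 49 were higher and 51 lower on control 1. By decile, the share of NM_ probes within 2-fold was highest in the seventh from the bottom, at 85.2%, and lowest in the brightest, at 65.3%. The next 300 NM_ probes had 206 (68.7%) within 2-fold, and 75 were higher on control 1 by 2-fold or more and 19 lower.

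Among probes with an informative symbol, the widest gaps, 1 probe per gene, were as follows. A probe of aifm2.S had 5.28 on control 1 and 7.15 on control 2. Next came copb2.S (a coat protein of Golgi vesicles) with 5.40 and 7.11, krt8.1.S (a keratin) with 5.49 and 7.03, hmgn2.S with 5.1 and 6.51, and rpl27a.L with 5.44 and 6.80. In the other direction a probe of rps27.S had 6.51 and 4.75, rack1.S had 6.38 and 4.72, rps2.L had 6.48 and 4.93, fth1.2.L had 6.52 and 5.16 and eef1d.L had 6.16 and 4.92. The brightest probes of rps27.S, rps2.L and fth1.2.L went the other way. They had 6.64 and 7.21 for rps27.S, 6.76 and 7.0 for rps2.L, and 5.94 and 6.83 for fth1.2.L.

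Each array alone gave a list of 300 that shared 222 probes with the other (74% of each list). Of the 300 by the mean, 242 were in the list of control 1 and 274 in that of control 2, and 6 were in neither. The first 100 were all in both lists, against 33 of the last 100. At the limit, the last 2 probes inside were those of actb.L and psma2.L, each with a mean of 5.53, and the first 2 outside were those of rpl38.L and cirbp.L, each with 5.51. There is thus no step at the end of the list.

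Marked spots followed brightness in different ways on the 2 arrays. Of the 300, 8 spots (2.67%) were marked on control 1 and 276 (92%) on control 2, and 24 probes were unmarked on both. By decile of mean brightness over NM_ probes, the share marked on control 1 was 15.8% in the dimmest, 85.8% at its highest in the fifth from the bottom and 41.1% in the brightest. On control 2 it was 0% in the dimmest and grew with each decile. In the brightest decile it reached 82.8%. Raw signals of the 300 ran from 206378 to 777579 on control 1 and from 62588 to 632518 on control 2. The deposited table of log2 values lists 77 of the 300 (25.7%), against 75.1% of all 16075 NM_ probes detected on both. Among NM_ probes marked on control 2 it lists 26.7%, against 86.4% of the unmarked. A ranking made on that table therefore leaves out most of the 300. With marked spots left out on their array, 251 of the 300 stayed among the 300 brightest, though all but 24 of the 300 then have a value on 1 array or none.

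The 300 were not spread evenly over the array surface. Rows 337 to 360 held 30 of them, which was 3.61% of the NM_ spots there, and rows 265 to 288 held 3, or 0.392%. In rows 265 to 288 the median NM_ spot had -2.19 on control 1 and -1.72 on control 2, against 0.06 and 0.01 in rows 337 to 360. Without the areas whose local median lay over 1 on the log2 scale from the array's median on either array, 235 of the 300 were kept. The loss of 21.7% was near the 23.7% of all NM_ spots in those areas, and the germ cell median percentile was 78.8, against 59.4 for all genes.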

How the data were processed

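The main values were intensity readings from the scanner tables that the authors deposited, on a linear scale. Per the file headers, they came from Feature Extraction 10.7.3.1, and the processed signal is background-subtracted, and on control 2 it was also corrected for a multiplicative trend, per the file headers. The authors' deposited table of log2 values for 27228 probes equals log2 of that signal minus 1 constant per array. How its probes were selected is not given in the sources used, and it served as an alternative.

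Control spots were left out, spots of 1 probe were averaged, and the 75th percentile of gene probes was subtracted from each array's log2 signal. Marked spots were kept. Accessions were named through the RefSeq table of assembly Xenopus_laevis_v10.1, used for names only, and 10010 of 10826 NM_ accessions had a symbol. A gene joined its L and S copies and was represented by its brightest NM_ probe. Families were defined by symbol and lists by name, and 2 symbols of the sperm list (sp4 and sp5) were left out because the table gives them to transcription factors.

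The members and lists were chosen with earlier results of these data known. Nothing was tested, because the ranking itself chose the probes and 2 arrays of 1 group were used. With 2 arrays, their number limits the precision. Named genes were the 30 highest with an informative symbol, up to 4 of the highest and up to 4 undetected per list, the 5 genes with an informative symbol and the widest gap between arrays in each direction, the 2 ranks on either side of the limit and a set of testis, oocyte and globin genes. Others are said to be chosen after their values were seen. Python 3.11.15 with pandas 2.3.3 was used, also for quantile normalization, and limma 3.58.1 in R 4.3.3 was used for normexp. The ranking code was run on simulated arrays with 200 planted probes set above all measured values. It placed all 200 among the 300, which checks the code only and says nothing of these arrays. Normexp used median signals with an offset of 50. Protein lengths were planned and not run.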

Additional observations from a re-analysis of the deposited data

How the results depend on the processing

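Each choice was changed alone. Of the 300 probes, normexp kept 272 among the 300 brightest, quantile normalization 290 and leaving out marked spots 251. Leaving out areas where a control array deviated from the median of all 5 arrays, simazine arrays included, kept 269. Either array alone kept 242 to 274. The deposited log2 table kept 77, since it lists no more of them. Ranking accessions by the median of their probes kept 121 of the 196. Counted over the 300 brightest of each setting, the number within 2-fold was 264 (88%) in the main setting, 182 (60.7%) with normexp and 171 (57%) in the deposited table. With marked spots left out, 24 had both values and 8 (33.3%) of these were within 2-fold. The germ cell median percentile (87.2) was 88.4 with normexp, 88.4 without marked spots, 78.8 without areas of deviating local median, 79.4 in the deposited table and 75.3 when a gene was the mean of its probes. The somatic testis median (64.9) was 63.4 without marked spots, 63.4 without those areas and 50.8 by the mean of probes. The oocyte median (69.1) was 74.4, 65.9 and 60.4 in the same settings and 78.7 in the deposited table. By the mean of probes, the median of all genes was 48.5. From 1 array alone the germ cell median was 86.8 to 88.1, the somatic 64.5 to 66.6 and the oocyte 69.0 to 70.8. In each of these settings the germ cell median lay above the oocyte median, and the oocyte median above the somatic one. In the deposited table the germ cell and oocyte medians, 79.4 and 78.7, were nearly level. They lay closer than the SD between the arrays of either list in the main setting (0.98 and 1.28). Of the values of these main results over all settings, 18 moved and 35 did not. For median percentiles the limit was 1 SD between the arrays, and for counts of probes it was a fixed factor. Of the other values, those of single genes and lists included, 171 moved by more than 1 SD between the arrays and 501 did not. Some settings could not move a percentile. Keeping dim probes, or taking the 75th percentile over detected probes only, leaves the order of the probes by their mean unchanged. The SD itself came from the values of each array alone, so values from 1 array tend to fall within it. The counts of values that did not move therefore overstate stability. No paired analysis was possible because 1 group was described and no test was made.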
